A study of Mus musculus with 10 samples.

Results

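The genes of heme synthesis and iron supply were followed in granulocyte-macrophage progenitors (GMPs) shortly after loss of *Mpc2*, a subunit of the carrier that brings pyruvate into mitochondria. The 9 genes were chosen by name and not by their values, though earlier results of these data were known at the time. They are *Alas1*, *Alad*, *Uros*, *Urod*, *Cpox*, *Ppox*, and *Fech*, which encode 7 enzymes of heme synthesis, *Tfrc*, the transferrin receptor, and *Fth1*, the ferritin heavy chain. They stand among 51717 annotated genes, of which 12381 held enough reads to be tested, and all 9 passed that filter through their levels in both groups. Enzymes of the pathway outside this list were not analysed here.

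Heme is an iron-bearing ring that cytochromes, catalase, and myeloperoxidase need to work, and GMPs make large amounts of myeloperoxidase for granules. Synthesis starts in the mitochondrion, where ALAS1 joins glycine to succinyl-CoA from the TCA cycle in the rate-limiting step, passes through the cytosol, and returns to the mitochondrion, where FECH inserts the iron. Iron enters bound to transferrin through TFRC, and what is not used is stored in ferritin. Iron regulatory proteins read the iron level of the cell. When iron is low they bind a short RNA hairpin, the iron-responsive element, which blocks translation of ferritin mRNA from its 5′ UTR and protects *Tfrc* mRNA from decay through its 3′ UTR.

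These hairpins are shown because they are the sequence feature by which *Tfrc* and *Fth1* are linked to iron. A search of annotated UTRs on the mRNA strand looked for the 6-base loop CAGTGN, an unpaired C before the upper stem, 5 upper pairs, and at least 3 of 5 lower pairs. Among the 9 genes other than *Fech*, *Fth1* and *Tfrc* held the element. The search result for *Fech* is not reported here. It was present in a 5′ UTR of 8 of 20899 genes (0.0383%) and in a 3′ UTR of 24 of 21022 genes (0.114%). Counts of elements per gene cover only those that met this pattern, and hairpins that depart from it were not counted. The sequences below are from GRCm38, written 5′ to 3′ along the mRNA in DNA letters, with the loop in capitals. *Fth1* carried 1 element in exon 1, on the plus strand at chr19:9982733-9982759, and *Tfrc* carried 4 in its last exon, exon 19, on the plus strand at chr16:32631220-32631246, chr16:32631599-32631625, chr16:32631664-32631690, and chr16:32631711-32631737.
Fth1 5′ UTR: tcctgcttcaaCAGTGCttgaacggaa
Tfrc 3′ UTR, element 1: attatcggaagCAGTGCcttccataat
Tfrc 3′ UTR, element 2: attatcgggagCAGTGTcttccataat
Tfrc 3′ UTR, element 3: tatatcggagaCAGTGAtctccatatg
Tfrc 3′ UTR, element 4: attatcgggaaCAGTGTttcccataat
The same search found the element in the 5′ UTR of *Ftl1*, the ferritin light chain, at chr7:45459780-45459806 on the minus strand, with a stem like that of *Fth1*, and in that of *Alas2*, the erythroid counterpart of *Alas1*, at chrX:150547459-150547485 on the plus strand. *Slc40a1*, the iron exporter, held 1 as well, and *Alas1* none.
Ftl1 5′ UTR: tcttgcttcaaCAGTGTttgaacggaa
Alas2 5′ UTR: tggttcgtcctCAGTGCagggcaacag

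RNA was compared between 5 WT samples and 5 recent *Mpc2* KO samples of CD45.2+ GMPs, sorted from bone marrow after enrichment for CD27. WT donors were ROSA26 CreER+/- and recent KO donors were Mpc2fl/fl; ROSA26 CreER+/-, so the cells of both groups carried the tamoxifen-activated Cre under the ubiquitous ROSA26 promoter. Both groups were of the C57Bl6/N strain and male, ate tamoxifen chow for 2 wk, and were sampled at its end. They were mixed chimeras, in which donor cells had rebuilt the blood of irradiated CD45.1 hosts beside WT cells. Cells of 2 mice were pooled for each recent KO sample, and those of 1 mouse made a WT sample. Ages are not given in the labels.

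The samples held 14133706 to 19745405 estimated reads in WT and 14033776 to 19658346 in recent KO GMPs. *Mpc2* (ENSMUSG00000026568; chr1:165460637-165481214, plus strand) measured 60.9 to 117 CPM (counts scaled to the same normalized library size) in WT and 17.1 to 43.9 CPM in recent KO samples, with no overlap. Its log2 fold change, here always recent KO over WT, was −1.46 (SE 0.24, adjusted p = 0.0156 in the quasi-likelihood test of edgeR, with Benjamini-Hochberg adjustment over all genes tested). This call was lost with a transcript length offset (edgeR adjusted p = 0.0741), robust dispersions (0.134), and replicate numbers as a block (0.0577). It was also lost with limma on TPM (adjusted p = 0.130 and 0.138) and without recent KO replicate 1 (edgeR adjusted p = 0.05). GMP markers were abundant in every sample, led by *Mpo* at 31830 to 69040 CPM and *Elane* at 8375 to 29690 CPM. The summed level of the 10 GMP markers was 90070 to 127400 CPM in WT samples and 53700 to 92010 CPM in recent KO samples. Markers of other cell types were present at low levels. Macrophage and megakaryocyte marker sums were higher in every recent KO sample than in any WT sample, and the erythroid sum was so in 3 of the 5 recent KO samples. The 15 annotated erythroid markers summed to 54.4 to 101 CPM in WT samples and 77.3 to 317 CPM in recent KO samples, 12 macrophage markers to 27.6 to 51.4 CPM and 52.9 to 95.7 CPM, and 7 megakaryocyte markers to 10.03 to 18.6 CPM and 22.9 to 31.7 CPM. In bulk samples, fewer cells of a type and less RNA per cell cannot be told apart.

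None of the 9 genes passed an adjusted p of 0.05 in the quasi-likelihood test, where 0.331% of all genes tested did, nor in DESeq2, where 1.09% of genes did. For none did the samples of the groups lie fully apart, as they did for 2.43% of all genes tested. At an unadjusted p under 0.05 from the same test, 5 of the 9 (55.6%) were lower in recent KO GMPs, where 10.2% of all genes tested passed in either direction. These 5 were *Alas1*, *Uros*, *Cpox*, *Ppox*, and *Tfrc*. *Fech* also had a negative log2 fold change, which made 6 of 9, beside 50.4% of all genes tested, and *Alad*, *Urod*, and *Fth1* had positive ones. The median log2 fold change of the 9 was −0.17, beside −0.0018 for all genes tested. The count of 5 depended on the processing. The number of the 9 that were lower at this unadjusted threshold was 0 to 5 across the other normalizations, filters, and tests and 2 to 4 when single samples were left out. It was 0 with limma on TPM, where the only gene under 0.05 was *Fth1*, which was higher. In simulated counts of 12381 genes with these sample numbers, the test recovered 52% of 1.5-fold and 72% of 2-fold changes at the adjusted threshold, and every fold change measured for the 9 genes was below 1.5-fold. The labels call the replicates biological, and p-values measure the spread between these samples. That spread is between pools of 2 mice in recent KO and between single mice in WT.

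**Figure D1:**
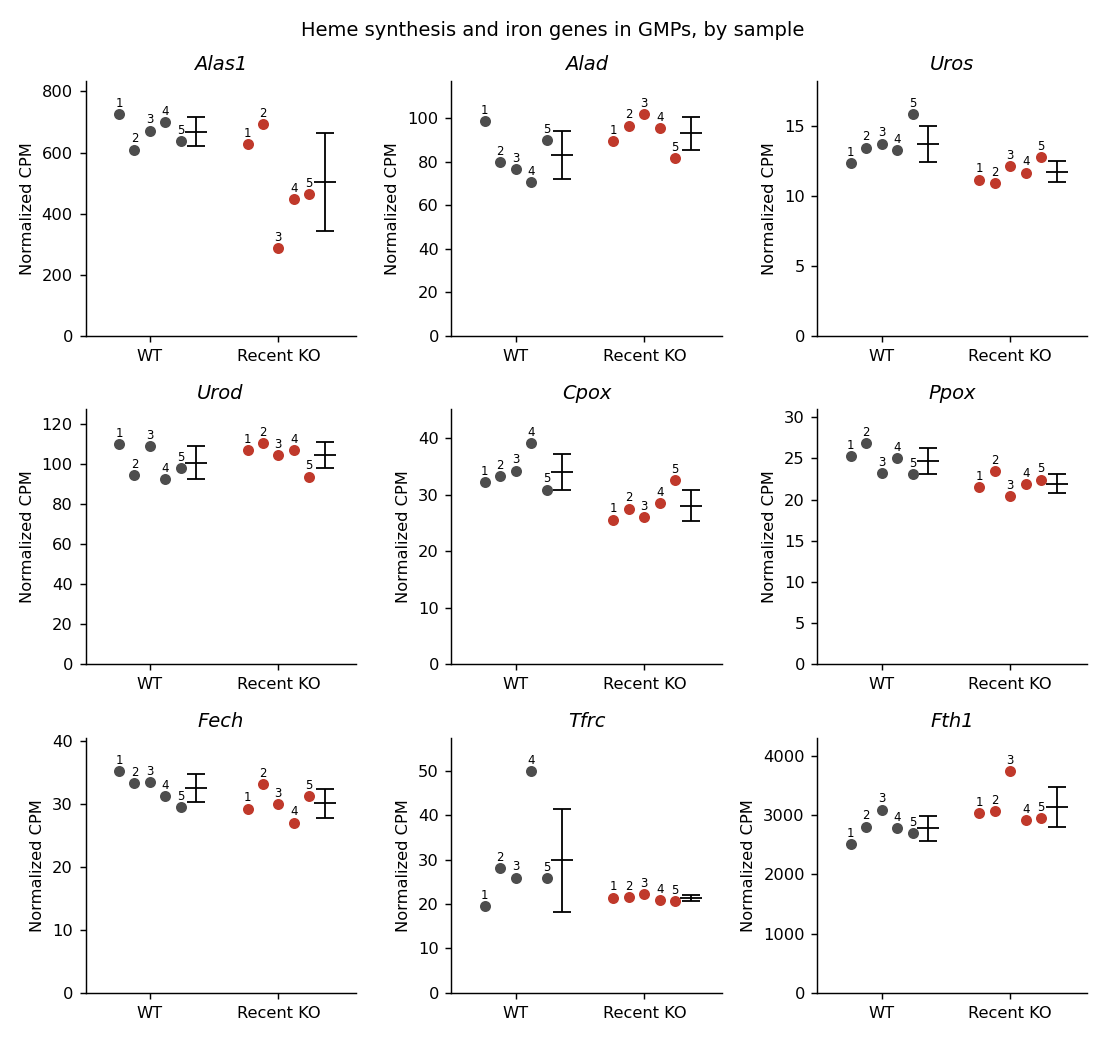
Normalized CPM of each of the 9 genes in every sample, with one panel per gene, WT in gray and recent KO in red, and replicate numbers beside the points. Bars beside the points are the mean and SD (n = 5 per group), every axis starts at 0, and the groups overlap in all 9 panels.

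**Figure D2:**
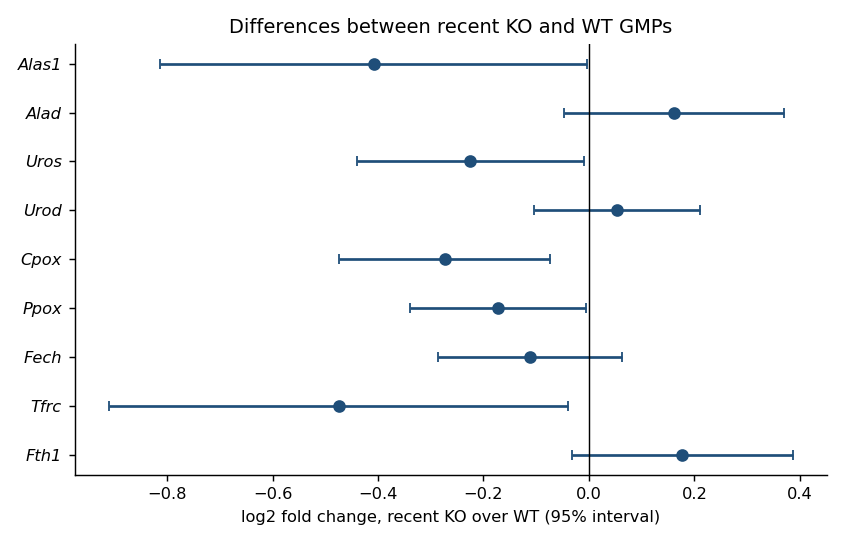
Log2 fold change (recent KO over WT) of each gene and its 95% interval (8 residual degrees of freedom) on the x axis. The intervals of *Alas1*, *Uros*, *Cpox*, *Ppox*, and *Tfrc* lie below 0 before any adjustment for the number of genes tested.

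Levels of different genes are comparable on the TPM scale, which divides by transcript length. In WT GMPs, *Fth1* led at 3375 ± 140 TPM (SD, n = 5), followed by *Alas1* at 440 ± 22.4 TPM. *Urod* and *Alad* followed at 72.5 ± 10.1 and 70.4 ± 14.5 TPM, with ranges that overlapped. The other enzymes were far less abundant, with *Ppox* at 13.5 ± 1.59, *Fech* at 13.2 ± 2.17, *Cpox* at 10.3 ± 0.83, and *Uros* at 8.27 ± 0.95 TPM, and *Tfrc* was lowest at 5.19 ± 1.92 TPM. The first enzyme of the pathway was thus far above those after it, and the ranges of *Fth1*, of *Alas1*, and of the *Urod* and *Alad* pair did not overlap with each other or with those of the 5 remaining genes. Among those 5, neighbors in the order overlapped. Recent KO GMPs gave the same order apart from *Alad*, at 81.1 ± 9.26 TPM, and *Urod*, at 73.4 ± 5.76 TPM, which exchanged places with ranges that again overlapped. There *Uros* at 6.30 to 8.01 TPM and *Tfrc* at 4.04 to 4.36 TPM also did not overlap. The TPM ratio of *Alas1* to *Alad*, the second enzyme, was 6.42 ± 1.07 in WT and 4.55 ± 1.27 in recent KO samples, with overlapping ranges of 5.24 to 7.90 and 2.56 to 5.70.

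**Figure D3:**
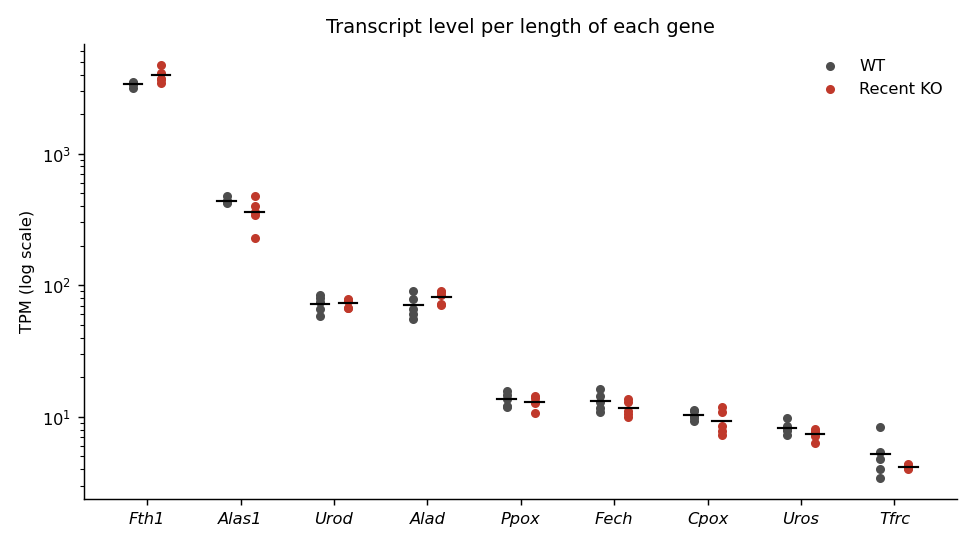
TPM of each gene in every sample on a log axis, ordered by the WT mean, with WT in gray, recent KO in red, and the group mean as a black line. *Fth1* and *Alas1* stand apart from the 7 other genes in both groups.

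*Alas1* (ENSMUSG00000032786; chr9:106233455-106248654, minus strand), the gene of the rate-limiting enzyme, measured 725, 610, 672, 700, and 636 CPM in WT replicates 1 to 5 and 627, 693, 288, 447, and 464 CPM in recent KO replicates 1 to 5. The WT samples were close together, and the recent KO samples were not. Recent KO replicates 1 and 2 lay within the WT range, and replicates 3, 4, and 5 lay below every WT sample. The means were 669 ± 46.6 and 504 ± 160 CPM (SD, n = 5). The log2 fold change was −0.41 (SE 0.18, 95% interval −0.81 to −0.0033, adjusted p = 0.444 in edgeR's test). The exact two-sided permutation test of the means gave p = 0.0714, where 5 samples against 5 allow no p below 0.00794. Without recent KO replicate 3, the log2 fold change was −0.26 (edgeR adjusted p = 0.65), and without recent KO replicate 2 it was −0.55 (edgeR adjusted p = 0.159).

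The 3 recent KO samples with low *Alas1* also stood apart from recent KO replicates 1 and 2 in their GMP and erythroid marker sums. The summed GMP markers were 53700, 70490, and 74890 CPM in replicates 3, 4, and 5 and 83380 and 92010 CPM in replicates 1 and 2. Summed erythroid markers ran the other way, at 317, 244, and 216 CPM in replicates 3, 4, and 5 and 80.7 and 77.3 CPM in replicates 1 and 2. Recent KO replicate 3 held the lowest *Alas1*, the lowest GMP marker sum, and the highest erythroid marker sum of all 10 samples. The WT samples did not follow this pattern. WT replicate 1 held the highest *Alas1* of all samples, 725 CPM, with a GMP marker sum of 91540 CPM, below that of recent KO replicate 2. Of the 10 GMP markers tested, none passed the adjusted threshold and 7 (70.0%) had an unadjusted p under 0.05, all lower. Of all genes tested, 10.2% were under 0.05 in either direction. *Fcgr3*, an Fc receptor used to gate GMPs, measured 357 to 456 CPM in WT samples and 153 to 318 CPM in recent KO samples (log2 fold change −0.65, edgeR adjusted p = 0.107). The GMP marker sum was led by *Mpo* and *Elane* and does not follow every marker. *Cd34* and *Kit* had positive log2 fold changes of 0.25 and 0.08, and *Cebpa* was at −0.04. *Cd34* measured 362, 309, and 298 CPM in recent KO replicates 3, 4, and 5 and 175 and 232 CPM in replicates 1 and 2. *Cebpe* measured 24.5, 44.8, and 40.5 CPM in recent KO replicates 3, 4, and 5 and 41.6 and 27.8 CPM in replicates 1 and 2. Of the 10 erythroid markers tested, none passed and 7 (70.0%) had an unadjusted p under 0.05, all higher. The hemoglobin genes *Hba-a1*, *Hba-a2*, *Hbb-bs*, and *Hbb-bt* had log2 fold changes of 1.95 to 2.08 (edgeR adjusted p = 0.176 to 0.236). *Hba-a1* measured 59.2, 38.8, and 33.7 CPM in recent KO replicates 3, 4, and 5 and 6.26 and 7.41 CPM in replicates 1 and 2. The erythroid membrane genes *Slc4a1* and *Ermap* were at or near 0, with no sample above 0.5595 CPM. *Alas2* was also nearly absent, at 0 to 0.665 CPM in WT samples and 0.141 to 1.12 CPM in recent KO samples, and was too low to be tested. The part of these markers in the *Alas1* values was not tested.

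**Figure D4:**
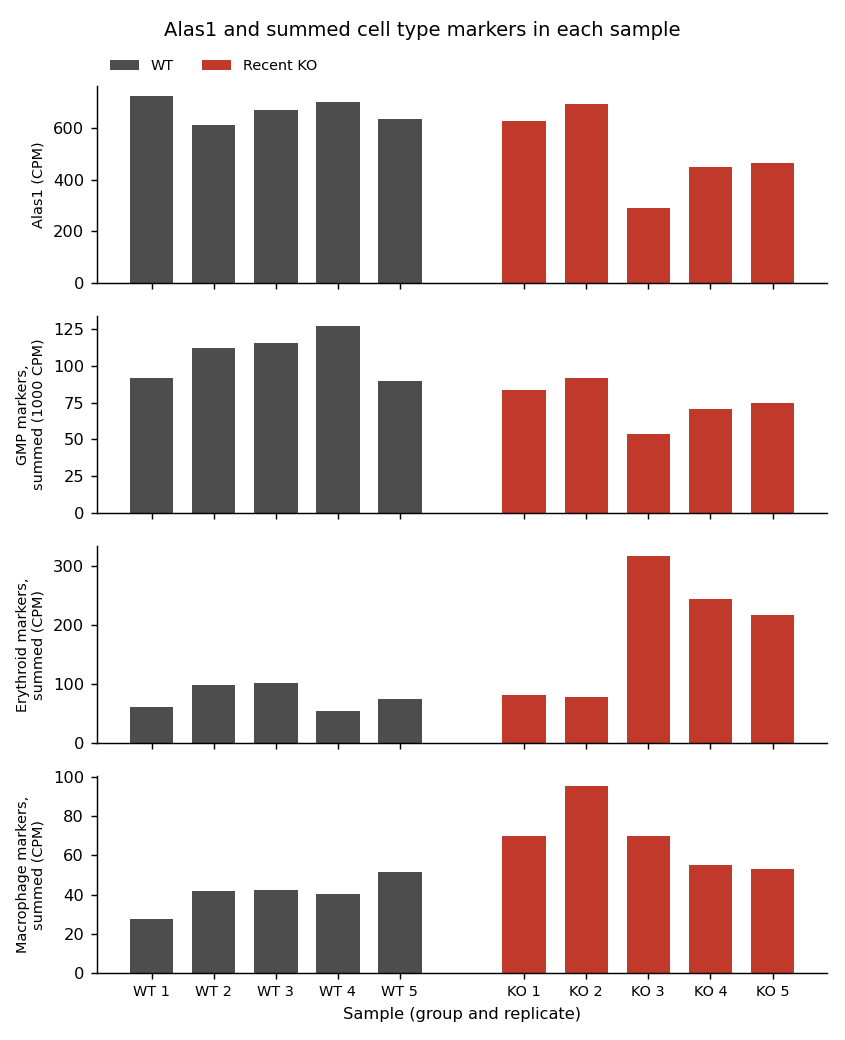
Bars show, for each sample from top to bottom, *Alas1* in CPM and the summed CPM of the GMP, erythroid, and macrophage markers, with WT in gray and recent KO in red and every axis starting at 0. Recent KO replicates 3, 4, and 5 hold less *Alas1*, a lower GMP marker sum, and a higher erythroid marker sum than recent KO replicates 1 and 2.

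The genes whose pattern over the 10 samples lay nearest to that of *Alas1* were *Ccdc125*, *Mgst1*, a microsomal glutathione transferase, and *Gpc1*, a cell surface proteoglycan. The comparison covered 7154 genes with a mean of at least 10 CPM, and the root mean square difference in centered log2 CPM was 0.0629, 0.0778, and 0.115, beside an SD of 0.396 for *Alas1* itself. *Ccdc125* measured 25.4 to 29.6 CPM in WT samples and 11.7 to 28.9 CPM in recent KO samples, and *Mgst1* 120 to 141 and 56.5 to 124 CPM. *Gpc1* measured 33.2 to 38.8 CPM in WT samples and 15.7 to 42.0 CPM in recent KO samples. None of the 3 passed the test (edgeR adjusted p = 0.425 to 0.629). They were picked for nearness to *Alas1* in these samples, so their ranges and test results are no separate result.

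After *Alas1*, the early and middle enzymes did not share a direction. *Alad* (ENSMUSG00000028393; chr4:62509169-62519918, minus strand), which joins the products of ALAS1 into porphobilinogen, measured 83.2 ± 11.1 CPM (70.8 to 98.7) in WT and 93.0 ± 7.68 CPM (81.7 to 102) in recent KO samples. The log2 fold change was 0.16 (SE 0.09, 95% interval −0.05 to 0.37, adjusted p = 0.583 in edgeR's test). *Uros* (ENSMUSG00000030979; chr7:133686243-133710072, minus strand), which closes the porphyrin ring, measured 12.3, 13.5, 13.8, 13.3, and 15.9 CPM in WT replicates 1 to 5 and 11.2, 10.9, 12.2, 11.7, and 12.8 CPM in recent KO replicates 1 to 5. Of the recent KO samples, 4 lay below every WT sample. The log2 fold change of *Uros* was −0.22 (SE 0.09, adjusted p = 0.425 from edgeR; exact permutation p = 0.0159). *Urod* (ENSMUSG00000028684; chr4:116989965-116994413, minus strand), which trims the side chains of the ring, measured 101 ± 8.13 CPM in WT samples and 104 ± 6.44 CPM in recent KO samples. Its log2 fold change was 0.05 with a 95% interval of −0.10 to 0.21 (edgeR adjusted p = 0.855), and it was −0.04 when changes in transcript length were taken into account.

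The last 3 enzymes, whose work is tied to the mitochondrion, were each lower on average in recent KO GMPs. *Cpox* (ENSMUSG00000022742; chr16:58670292-58717636, plus strand), coproporphyrinogen oxidase, measured 32.2, 33.3, 34.3, 39.2, and 30.9 CPM in WT replicates 1 to 5 and 25.6, 27.6, 26.1, 28.6, and 32.5 CPM in recent KO replicates 1 to 5. Recent KO replicate 5 lay within the WT range and the other 4 recent KO samples lay below it. Its log2 fold change of −0.27 (SE 0.09, 95% interval −0.47 to −0.07) had the lowest adjusted p of the 9 genes, 0.264 in edgeR's test (exact permutation p = 0.0238). The unadjusted p of *Cpox* was 0.00705, from the same edgeR test, and it stayed under 0.05 whichever sample was left out, but not with the length offset or with limma on TPM. *Ppox* (ENSMUSG00000062729; chr1:171275990-171281186, minus strand), protoporphyrinogen oxidase, measured 25.3, 26.9, 23.2, 25.0, and 23.1 CPM in WT replicates 1 to 5 and 21.5, 23.4, 20.4, 21.9, and 22.4 CPM in recent KO replicates 1 to 5. Again 4 of the 5 recent KO samples lay below every WT sample, here by a small margin. The log2 fold change of *Ppox* was −0.17 (SE 0.07, adjusted p = 0.428 from edgeR; exact permutation p = 0.0238). *Fech* (ENSMUSG00000024588; chromosome 18, minus strand), ferrochelatase, measured 32.5 ± 2.22 CPM in WT samples and 30.1 ± 2.28 CPM in recent KO samples, with a log2 fold change of −0.11 (SE 0.08, adjusted p = 0.668 from edgeR). The *Fech* samples overlapped widely, at 29.4 to 35.2 and 27.03 to 33.1 CPM.

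*Tfrc* (ENSMUSG00000022797; chr16:32608920-32632794, plus strand), whose 4 hairpins are printed above, measured 19.5, 28.1, 25.9, 49.9, and 25.8 CPM in WT replicates 1 to 5 and 21.4, 21.5, 22.2, 20.9, and 20.7 CPM in recent KO replicates 1 to 5. WT replicate 4 was far above all other samples, WT replicate 1 was below every recent KO sample, and the recent KO samples were nearly equal. The coefficient of variation of *Tfrc* was 39.1% in WT and 2.73% in recent KO samples. Recent KO samples were pools of mice and WT samples were single mice, and the part of pooling in this was not tested. The log2 fold change was −0.48 (SE 0.19, 95% interval −0.91 to −0.04, adjusted p = 0.412 in edgeR's test; exact permutation p = 0.0476). WT replicate 4 carried much of this value, since without it the log2 fold change was −0.22 (edgeR adjusted p = 0.619). That sample was also the highest for *Mpo* (69040 CPM), for *Ftl1* (7305 CPM), for *Tspo* (913 CPM), and for the summed GMP markers (127400 CPM), and the part of this in the *Tfrc* value was not tested. The genes nearest to *Tfrc* in pattern were *Sema4a*, *Piga*, and *Fam160a2*, with root mean square differences of 0.149, 0.154, and 0.159 in log2 CPM. All 3 spread more in WT than in recent KO samples, with *Sema4a* at 16.3 to 41.1 and 16.7 to 21.4 CPM, *Piga* at 14.3 to 33.8 and 15.2 to 18.1 CPM, and *Fam160a2* at 11.45 to 19.97 and 10.1 to 11.9 CPM. None of the 3 passed the test (edgeR adjusted p = 0.415 to 0.779). They were picked for nearness to *Tfrc* in these samples. Their wider WT spread and their test results follow from that choice and are no separate result.

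*Fth1* (ENSMUSG00000024661; chr19:9980598-9985098, plus strand), the iron-oxidizing chain of ferritin, measured 2510, 2809, 3096, 2785, and 2695 CPM in WT replicates 1 to 5 and 3032, 3067, 3743, 2920, and 2952 CPM in recent KO replicates 1 to 5. All 5 recent KO samples were above the WT mean of 2779 CPM, and 1 was above the highest WT sample. The log2 fold change was 0.18 (SE 0.09, 95% interval −0.03 to 0.39, adjusted p = 0.534 in edgeR's test; exact permutation p = 0.0556). Recent KO replicate 3, the sample with the lowest *Alas1*, held the highest *Fth1*, and without it the log2 fold change was 0.11 (edgeR adjusted p = 0.833). *Ftl1*, the other ferritin chain, had the opposite sign, at 6133 ± 1072 CPM in WT samples and 5199 ± 590 CPM in recent KO samples (log2 fold change −0.24, edgeR adjusted p = 0.554). The TPM ratio of *Fth1* to *Ftl1* was 0.488 ± 0.063 (0.403 to 0.565) in WT and 0.649 ± 0.122 (0.547 to 0.852) in recent KO samples. The TPM ratio of *Fth1* to *Tfrc* was 719 ± 240 and 944 ± 117, with ranges that overlapped.

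The wider heme and iron genes gave no called difference either. Of 17 genes of heme transport and breakdown, 15 were tested and none passed the adjusted threshold. At an unadjusted p under 0.05, 4 were higher and 1 lower (33.3% of those tested), beside 10.2% of all genes tested. *Hmox1*, heme oxygenase, which opens the heme ring, measured 3.43, 5.93, 6.47, 4.197, and 9.10 CPM in WT and 11.8, 19.9, 11.2, 9.13, and 7.47 CPM in recent KO replicates 1 to 5. All but 1 of the recent KO samples were above the highest WT sample. Its log2 fold change was 1.02 (SE 0.28, adjusted p = 0.199 in edgeR's test). *Hmox1* is also on the macrophage marker list, on which *C1qa*, *C1qb*, and *C1qc*, complement genes of tissue macrophages, passed the test and were higher (log2 fold changes 1.25 to 1.59, edgeR adjusted p = 0.016 to 0.0406), and recent KO replicate 2 held both the highest *Hmox1* and the highest macrophage marker sum, 95.7 CPM. *Spic* and *Cd5l*, also macrophage markers, did not overlap between groups but missed the adjusted threshold, at 0.544 to 1.32 and 1.55 to 2.83 CPM for *Spic* and 0.734 to 1.86 and 2.25 to 5.74 CPM for *Cd5l* in WT and recent KO samples. The list was not uniform. Of its 11 tested genes, 10 had positive log2 fold changes, with *Cd163* at 0.02, and *Adgre1* was at −0.39 (edgeR adjusted p = 0.569). *Mertk* was too low to be tested. The platelet factor gene *Pf4*, a megakaryocyte marker, did not overlap either, at 0.930 to 4.49 and 5.38 to 11.5 CPM (edgeR adjusted p = 0.122). The part of other cell types in the *Hmox1* value was not tested.

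*Pgrmc1*, a heme-binding membrane protein, was the only gene of the heme and iron lists whose groups did not overlap, where 2.43% of all genes tested did not. It was 1 of 15 tested genes of heme transport and breakdown. The other heme and iron lists, with 9, 10, 5, 3, 18, 6, and 11 tested genes, held none, so this is no excess over all genes. *Pgrmc1* measured 66.4 to 88.7 CPM in WT samples and 90.7 to 106 CPM in recent KO samples (log2 fold change 0.32, SE 0.08, edgeR adjusted p = 0.136). *Tspo*, a porphyrin-binding protein of the outer mitochondrial membrane, had a log2 fold change of −0.34 (edgeR adjusted p = 0.402), with its highest value in WT replicate 4. *Tmem14c*, which carries a heme precursor into mitochondria, *Hmox2*, the constitutive heme oxygenase, and *Blvra*, a biliverdin reductase, had log2 fold changes of 0.02, 0.05, and 0.03. The heme exporters *Flvcr1* and *Abcg2* had log2 fold changes of 0.35 and 0.27, with edgeR adjusted p of 0.416 and 0.392.

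None of the 10 other iron uptake genes tested passed, nor did any of 5 genes of iron storage and export. The most abundant uptake genes were *Snx3*, which recycles the transferrin receptor, *Trf*, transferrin itself, *Mcoln1*, an endosomal iron channel, and *Hfe*, which binds the transferrin receptor, with log2 fold changes of −0.03, 0.03, −0.01, and −0.17. The iron chaperones *Pcbp1* and *Pcbp2* had log2 fold changes of −0.14 and 0.09, and *Ncoa4*, the receptor that delivers ferritin to lysosomes, 0.00. The hairpin-binding proteins *Aco1* and *Ireb2* and their regulator *Fbxl5* had log2 fold changes of 0.00, 0.17, and −0.04 (edgeR adjusted p = 0.665 to 0.994). All 18 genes of mitochondrial iron handling and iron-sulfur cluster assembly were tested and none passed. Of these, 15 had a positive log2 fold change and 3 a negative one, where 50.4% of all genes tested were negative. Their median was 0.07, and the most abundant, *Iscu*, *Nfu1*, *Bola3*, and *Glrx5*, lay between 0.02 and 0.15. Among 6 tested regulators tied to heme, none passed, with *Nfe2l2*, *Nrf1*, *Eif2ak1*, the heme-sensing kinase, and *Nr1d1*, a heme-binding nuclear receptor, at −0.09, 0.05, 0.06, and 0.29.

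Proteins that carry heme were led by *Mpo*, myeloperoxidase, at 61000 ± 7466 CPM in WT samples and 42410 ± 7537 CPM in recent KO samples (log2 fold change −0.52, edgeR adjusted p = 0.272). Of the 11 hemoprotein genes tested, none passed. *Mpo* and *Epx*, the eosinophil peroxidase, were lower at an unadjusted p under 0.05 (18.2%, beside 10.2% of all genes tested). The cytochrome genes *Cyba*, *Sdhd*, and *Cyc1* had log2 fold changes of −0.21, 0.04, and −0.01. Recent KO replicate 3 had the lowest *Mpo* of all samples, 31830 CPM, as it had the lowest *Alas1*. *Mpo* is also one of the GMP markers. Of 28 cell cycle genes, none passed the adjusted threshold. At an unadjusted p under 0.05, 2 (7.14%) were higher, beside 10.2% of all genes tested in either direction. One of these genes, *Ccnb1*, a mitotic cyclin, did not overlap, at 213 to 227 CPM in WT samples and 230.5 to 251 CPM in recent KO samples (log2 fold change 0.15, edgeR adjusted p = 0.298). Over all genes tested, 2.43% did not overlap. The most abundant, *Birc5*, *Cdk1*, *Ccnd2*, and *Tyms*, had log2 fold changes of −0.01, 0.06, 0.12, and 0.06.

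**Figure D5:**
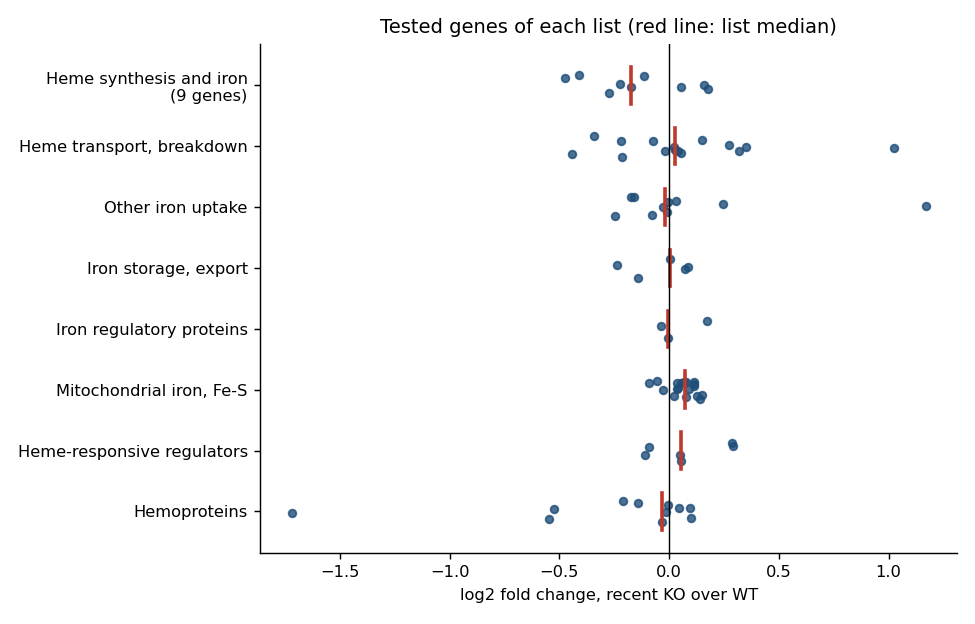
Log2 fold change (recent KO over WT) on the x axis for every tested gene of each heme and iron list, one point per gene with a red line at the list median. The median of the 9 genes is −0.17, and that of the 18 genes of mitochondrial iron and iron-sulfur assembly is 0.07.

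Promoters are given because the start of the pathway holds matches to NRF1, a factor of nuclear genes for mitochondrial proteins. Its binding was not measured here. RefSeq promoters (GRCm38.p6, 250 bases before to 50 after the start) matched 8 of the 9 genes. The letters GCGCA, then any base, then GCGC, on either strand, were in 4.6% of 32851 promoters and in those of *Alas1* and *Uros*. The matches, in capitals and written along the gene's minus strand, lay at chr9:106247906-106247935 and chr9:106247935-106247964 for *Alas1* and at chr7:133709323-133709352 for *Uros*.
Alas1, first: cgcacccaagGCGCATGCGCggcggtcact
Alas1, second: gcttcggcgcGCGCGTGCGCgcggcaggcc
Uros: cggtcacactGCGCCTGCGCgagtcccgcc
The E-box CACGTG was in 7.15% of promoters and in those of *Alad*, *Urod*, and *Uros*, the GATA letters AGATAA in 11.2% and in that of *Cpox*, and the antioxidant response letters TGACNNNGC in 12.4% and in none of the 8. A match is only a description of these letters.

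Some of the 9 genes share reads with other transcripts or genes. Most estimated reads of *Alas1*, 59.0% ± 1.59 in WT and 61.2% ± 1.32 in recent KO samples, were assigned to *Alas1*-206, which is annotated as a processed transcript without a coding frame and has a first exon of its own (exact permutation p = 0.0397, adjusted p = 0.357 over the 9 genes). On the TPM scale the difference had the opposite sign. The coding transcript *Alas1*-201, chosen after its values were seen, took 22.6% ± 2.69 and 18.1% ± 2.08 (exact permutation p = 0.0159). Because these transcripts share most exons, the split between them rests on the estimate. One transcript took 98.3% or more of the WT reads of *Alad*, *Urod*, and *Fth1*, 93.0% for *Tfrc*, 61.5% to 73.0% for *Cpox*, *Ppox*, and *Fech*, and 28.3% for *Uros*, and none of these shares passed the test. Overlaps between genes are given for whole gene spans, exons and introns together. *Uros* overlaps *Bccip* on the opposite strand by 740 bases, and *Bccip* was far more abundant, at 159 CPM in WT. *Ppox* overlaps *B4galt3*, at 21.5 CPM, by 907 bases, *Alas1* overlaps *4930500F10Rik* by 695 bases, and *Cpox* overlaps *Gpr15* by 204 bases. Counting without strand leaves reads in these overlaps uncertain. The near-identical copy of *Fth1*, the pseudogene *Gm6977*, held 2 reads over all samples, and adding it left the *Fth1* difference as it was.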

How the data were processed

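RNA from sorted GMPs of 5 WT and 5 recent *Mpc2* KO samples was amplified with SMARTseq V4 and sequenced in pairs on a NovaSeq. The authors quantified transcripts of GENCODE M27 with Salmon (1.5.1 per the submitters' processing notes). The deposited files hold estimated counts per transcript, not normalized and not always whole, and TPM, which Salmon scales by length to 1 total per sample. A deposited table of the authors' own DESeq2 comparison (fold changes and p-values) was not used. Per-sample columns without a sample numbered 0.

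Transcripts were joined to GENCODE M21 (GRCm38) by unversioned identifier. Of 140789 transcripts, 137161 matched (97.4%), and the rest, with 0.348% to 0.390% of reads, were left out. Estimated reads were summed per gene, rounded, normalized by TMM, and tested by edgeR's quasi-likelihood test (edgeR 4.0.16, R 4.3.3) over the 12381 genes kept by filterByExpr (minimum count 10), with Benjamini-Hochberg adjustment at 0.05. A floor of 3 counts equals 0.147 to 0.233 CPM and covers counting error only, since reads without molecular identifiers are not independent molecules. Replicates differed by more than sampling noise and none were identical. Single values had exact two-sided permutation tests (scipy 1.17.1). Copies were searched with BLAST 2.17.0 at 90% identity over 50% of the length. The test was tested on simulated data, in which 1.59% of its calls were false.

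The genes and lists were chosen with earlier results of these data known. Named genes are the 9 genes, *Mpc2*, *Alas2*, list genes that passed the test or did not overlap between groups, the 4 most abundant of each heme, iron, and cell cycle list, near-identical copies, and the 3 genes nearest in pattern to *Alas1* and *Tfrc*. Other genes were named after their values were seen, and single results of some list genes are not reported here. Results were recomputed with DESeq2 1.42.0, with limma 3.58.1 on TPM (log2 scale, pseudocount 1 or 0.1, mean TPM of 1 or more), with other scalings (RLE, upper quartile, library size), with other filters (none, mean count of 50), with robust dispersions, with a length offset, with replicate numbers as a block, and without each sample. Leaving out 2 samples together and TMM factors without *Fth1* were added after seeing the data.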

Additional observations from a re-analysis of the deposited data

Results flagged for a closer look

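Within groups, 2 of 20 sets of 5 values had 1 sample far from the other 4 by Dixon's criterion, where chance gives about 1 in 20. *Tfrc* in WT replicate 4 was 49.9 CPM, beside 19.5 to 28.1 CPM in the other WT samples. *Fth1* in recent KO replicate 3 was 3743 CPM, beside 2920 to 3067 CPM in the other 4.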

How the results depend on the processing

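No alternative called any of the 9 genes. Their log2 fold changes kept their sign under every alternative run except that of *Urod*, which was −0.042 with the length offset. The count of genes called among all tested was 41, and 206 without a filter on low counts, 156 with DESeq2, 25 and 24 with limma on TPM at a pseudocount of 1 and 0.1, 25 to 91 with single samples left out (91 without recent KO replicate 2), and 18 without recent KO replicate 3 and WT replicate 4, a choice made after seeing the data. In that last setting *Alas1* was at −0.24 and *Tfrc* at −0.23, and *Cpox* and *Uros* were under an unadjusted p of 0.05. The numbers did not pair the samples (same-number correlations −0.18 to 0.06, 0 samples nearest to their own number), and the replicate block gave 20 called genes and changed no call of the 9. *Mpc2* passed in the reported test and was at −1.40 with the length offset (adjusted p = 0.0741), −1.46 with robust dispersions (0.134) and with the block (0.0577), and −1.35 and −1.38 with limma (0.130 and 0.138), and −1.60 to −1.31 with single samples left out (adjusted p up to 0.05, which missed the threshold without recent KO replicate 1). The differences in main transcript share, none of which passed, turned on the TPM scale to −0.99 percentage points for *Alas1*, 5.37 for *Urod*, −0.75 for *Ppox*, and −5.16 for *Tfrc*. With single samples left out they ran from −0.26 to 0.29 for *Alad*, −0.46 to 0.10 for *Urod*, −2.03 to 0.99 for *Cpox*, −0.76 to 3.67 for *Ppox*, and −2.46 to 3.13 for *Tfrc*. The cause of these shifts was not tested. In simulated counts 52% of 1.5-fold changes were recovered, and recovery of differences as small as those of the 9 genes was not simulated.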
